A study of Mus musculus with 2 samples.

Results

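The subunits of oxidative phosphorylation were compared between Z(+) and Z(-) spleen cells, which bind or do not bind the Zfra peptide. Members were taken by gene symbol from the array's annotation: nuclear genes of complexes I to V and Cycs, without Cox6a2, assembly factors named Ndufaf, and pseudogenes. This gave 76 of the 19084 genes on the array, with 35 genes of complex I, 4 of complex II, 6 of complex III, 16 of complex IV, 14 of complex V and 1 gene, Cycs, for cytochrome c. Both groups came from untreated, uncultured spleens of NOD-SCID mice aged 6 to 8 weeks. This strain carries the scid mutation of Prkdc, and the study calls it deficient in T and B cells. Binding of Zfra as the basis of this sort is inferred from the names of the fractions and the study's other sorts. The number 8 in the design text was taken to mean 8 pooled spleens, and each fraction gave 1 RNA sample, hybridised to 2 technical arrays whose mean was deposited. With 1 sample per fraction there is no test between fractions and no p-value.

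Oxidative phosphorylation takes place at the inner mitochondrial membrane. Complexes I (NADH dehydrogenase) and II (succinate dehydrogenase) pass electrons to ubiquinone, complex III (cytochrome bc1) passes them to cytochrome c, and complex IV (cytochrome c oxidase) passes them to oxygen. The proton gradient built by complexes I, III and IV drives ATP synthase, complex V. Core subunits carry the flavins, iron-sulfur clusters and hemes or the catalytic sites, and many small accessory subunits surround them. The catalytic subunits of complex IV and several membrane subunits of complexes I, III and V are encoded by mitochondrial DNA and are not among these genes.

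Transcripts of most subunits were lower in Z(+) than in Z(-). Accessory subunits of complex I had a lower median than its core subunits. Small subunits of complex III had a lower median than the other members of that complex. These classes were assigned with the values known. Transcript length, and whether probes also match processed pseudogenes of these genes, were not examined. Of the 76 genes, 61 had a lower intensity in Z(+), while 45.7% of all genes did. By at least 2-fold, 11 were lower and 0 higher, against 6.27% and 2.44% of all genes. By at least 1.5-fold, 36 were lower and 1 higher, against 13.5% and 7.89% of all genes. The median log2 difference, Z(+) minus Z(-), was -0.56 over the subunits, which is 1.47-fold lower, and 0.03 over all genes. Among the 60 subunits whose mean log2 intensity reached the median of all genes, an intensity of 121, the median was -0.65 and 54 were lower, 33 by at least 1.5-fold and 9 by at least 2-fold, while 0 were higher by 1.5-fold. Of all genes that bright, 49.8% were lower, 14.3% by at least 1.5-fold and 6.14% by at least 2-fold, and 7.65% and 2.12% were higher by those sizes. The 16 dimmer subunits had a median of 0.02. RNA of a whole fraction does not tell fewer cells of a type from less RNA per cell.

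**Figure D1:**
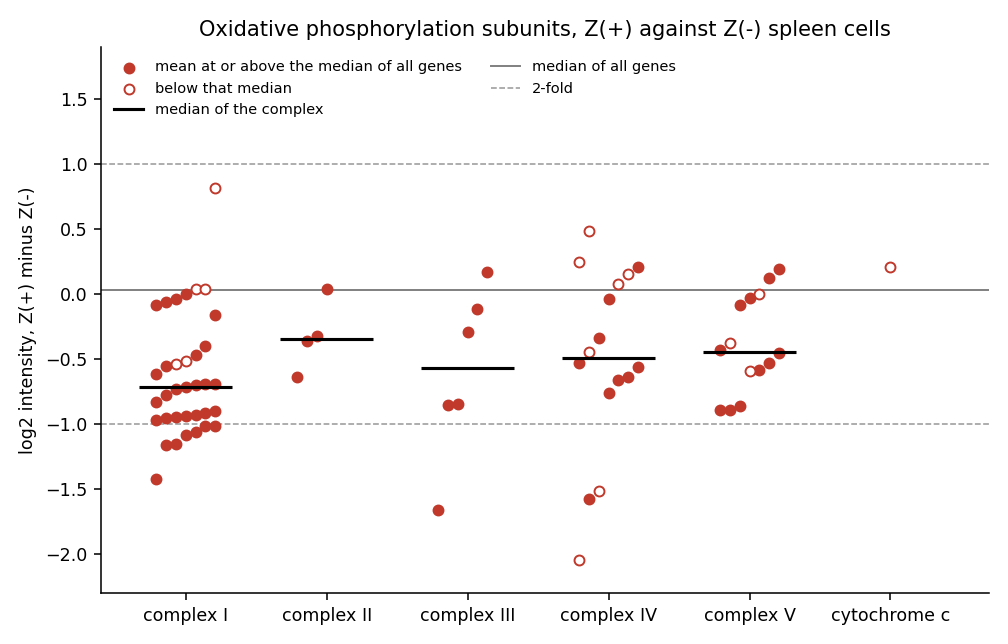
Log2 intensity of Z(+) minus Z(-) for each of 76 subunit genes (points), by complex, with 1 sample per fraction. Filled points reach the median brightness of all genes and open points do not; the black bars are medians, from -0.72 in complex I to -0.34 in complex II, the grey line is the median of all genes, 0.03, and the dashed lines mark 2-fold.

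Among the brightest genes the shift was larger. With a mean intensity of at least 2000, 37 of 41 subunits were lower in Z(+) and 25 passed 1.5-fold, for a median of -0.69 on the log2 scale. The 2186 other genes in that range had a median of 0.01, with 1079 lower, 313 by at least 1.5-fold. The scanner's limit is 65535, and the brightest subunit value was 31257, for Atp5g3 in Z(-).

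**Figure D2:**
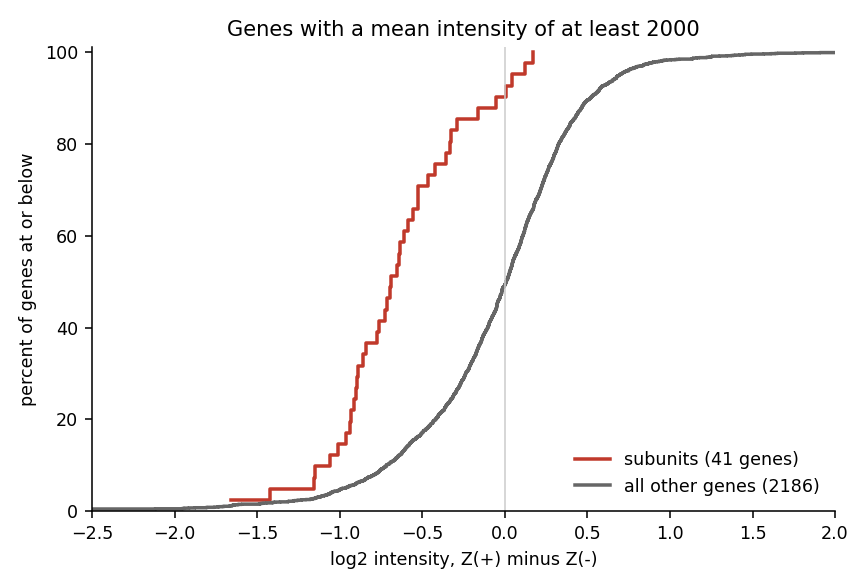
Cumulative percent of genes (vertical axis) at or below each log2 difference, Z(+) minus Z(-) (horizontal axis), for 41 subunits and 2186 other genes with a mean intensity of at least 2000, a few of which lie past the edges. The curve of the subunits lies to the left, with its median at -0.69, while the other genes have theirs at 0.01.

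The array table holds no sequence, so the promoters are shown from RefSeq (GRCm38.p6), as the stretch before the start of transcription of 6 subunit genes. They were chosen because they hold the letters of a site for a known regulator of mitochondrial genes and come from genes that were lower in Z(+) or near no difference. Each stretch has 120 bases, ends at the base before the annotated start, reads 5′ to 3′ on the strand of the gene, and has the matched letters in capitals. GCATGCG or its reverse complement CGCATGC, which overlap in a full site, is the core of the site of NRF1, a regulator of nuclear genes for mitochondria. CCGGAAG or CTTCCGG is the core of an ETS site, such as that of GABPA.
Ndufa8: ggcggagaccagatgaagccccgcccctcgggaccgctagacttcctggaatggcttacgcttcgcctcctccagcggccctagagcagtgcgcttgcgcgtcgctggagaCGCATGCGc
Atp5k: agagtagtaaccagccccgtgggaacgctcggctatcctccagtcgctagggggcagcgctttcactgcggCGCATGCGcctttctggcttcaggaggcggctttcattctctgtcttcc
Cycs: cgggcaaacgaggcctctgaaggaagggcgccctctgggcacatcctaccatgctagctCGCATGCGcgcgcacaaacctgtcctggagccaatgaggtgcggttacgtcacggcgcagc
Uqcr11: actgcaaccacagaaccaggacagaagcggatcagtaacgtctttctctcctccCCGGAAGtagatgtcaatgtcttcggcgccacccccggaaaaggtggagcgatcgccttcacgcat
Cox6b1: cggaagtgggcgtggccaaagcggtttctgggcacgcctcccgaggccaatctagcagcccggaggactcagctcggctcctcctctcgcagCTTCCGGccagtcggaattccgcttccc
Ndufs3: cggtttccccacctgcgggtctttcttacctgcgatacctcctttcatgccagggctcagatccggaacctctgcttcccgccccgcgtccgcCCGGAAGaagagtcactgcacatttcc

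These stretches lie at chr2:36049339-36049458 (Ndufa8, minus strand), chr5:108434400-108434519 (Atp5k, minus), chr6:50566570-50566689 (Cycs, minus), chr10:80406822-80406941 (Uqcr11, minus), chr7:30626115-30626234 (Cox6b1, minus) and chr2:90904722-90904841 (Ndufs3, minus). A promoter, from 250 bases before to 50 after the start, was listed for 63 of the 76 subunit genes. On either strand, the NRF1 core was found in 10 of the 63 (15.9%), against 5.55% of 14967 array genes with a promoter. The ETS core was found in 13 (20.6%), against 14.1%, and AGATGGC or GCCATCT, part of the site of YY1, in 11 (17.5%), against 7.19%. Genes with and without a match were found on both sides of the 1.5-fold limit. Of 31 subunit genes at least 1.5-fold lower in Z(+), 6 held the NRF1 core, 8 the ETS core and 4 the YY1 letters, and of the 32 others 4, 5 and 7 did. A match of letters does not show that a factor binds.

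Complex I had the largest shift of the 5 complexes, with a median log2 difference of -0.72 over its 35 genes, 31 of them lower, 22 by at least 1.5-fold and 7 by at least 2-fold. The 28 accessory subunits, leaving aside the paralog Ndufa4l2, had a median of -0.80 and the 6 measured core subunits one of -0.06. Ndufa12, an accessory subunit of the arm that oxidises NADH, was 2.68-fold lower, reading 2044 in Z(+) and 5480 in Z(-). Ndufb6, an accessory subunit of the membrane arm, had 3048 in Z(+) and 6804 in Z(-). Its neighbour in that arm, Ndufb3, had 2291 in Z(+) and 5090 in Z(-). These genes were 2.23-fold and 2.22-fold lower in Z(+). Ndufa7 followed at 1332 in Z(+) and 2823 in Z(-), Ndufb2 at 1352 and 2723, and Ndufa8 at 2227 and 4484, between 2.12-fold and 2.01-fold lower. Ndufa4, named for complex I but now known as a subunit of complex IV, had 6446 in Z(+) and 13419 in Z(-).

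The Ndufb subunits, which lie in the membrane arm, were alike among themselves. All 9 were lower in Z(+), 8 by at least 1.5-fold, between -1.16 and -0.55 on the log2 scale, with Ndufb5, Ndufb7, Ndufb8, Ndufb9 and Ndufb10 at -0.94 to -0.69. Ndufb11, the one with the smallest difference, could be read on each technical array, with 790 and 789 in Z(+) and 1185 and 1132 in Z(-). Its arrays did not overlap between the fractions. The 14 Ndufa subunits were all lower as well and spread further, between -1.42 and -0.06, with Ndufa9 and Ndufa10 at the upper end. Ndufa9 had 2302 in Z(+) and 2393 in Z(-), and Ndufa10 had 3447 in Z(+) and 3858 in Z(-). Both are large accessory subunits. Ndufa1, Ndufa2, Ndufa3, Ndufa5 and Ndufa6 lay between, at -0.96 to -0.61. Ndufab1, the mitochondrial acyl carrier protein, was dim, with 73.6 and 75.5 on the arrays of Z(+) and 112 and 104 on those of Z(-). Ndufa13, the brightest gene of complex I, had 16604 in Z(+) and 27271 in Z(-), which is 1.64-fold lower.

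Most core subunits of complex I lay close to no difference. Ndufv1, which binds NADH and the flavin, read 2810 in Z(+) and 2801 in Z(-). Ndufs1, the largest iron-sulfur subunit, had 1343 and 1340 on the arrays of Z(+) and 1404 and 1433 on those of Z(-), 1.06-fold lower in the mean. Ndufs3, another core subunit, had 276 and 276 on the arrays of Z(+) and 292 and 275 on those of Z(-), which overlap. Core subunits with clusters next to the ubiquinone site were lower. Ndufs8 had 1355 in Z(+) and 2602 in Z(-), 1.92-fold lower, and Ndufs7 had 3014 in Z(+) and 4156 in Z(-), 1.38-fold lower. The core subunit Ndufv2 was dim, at 53.5 in Z(+) and 52.0 in Z(-).

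**Figure D3:**
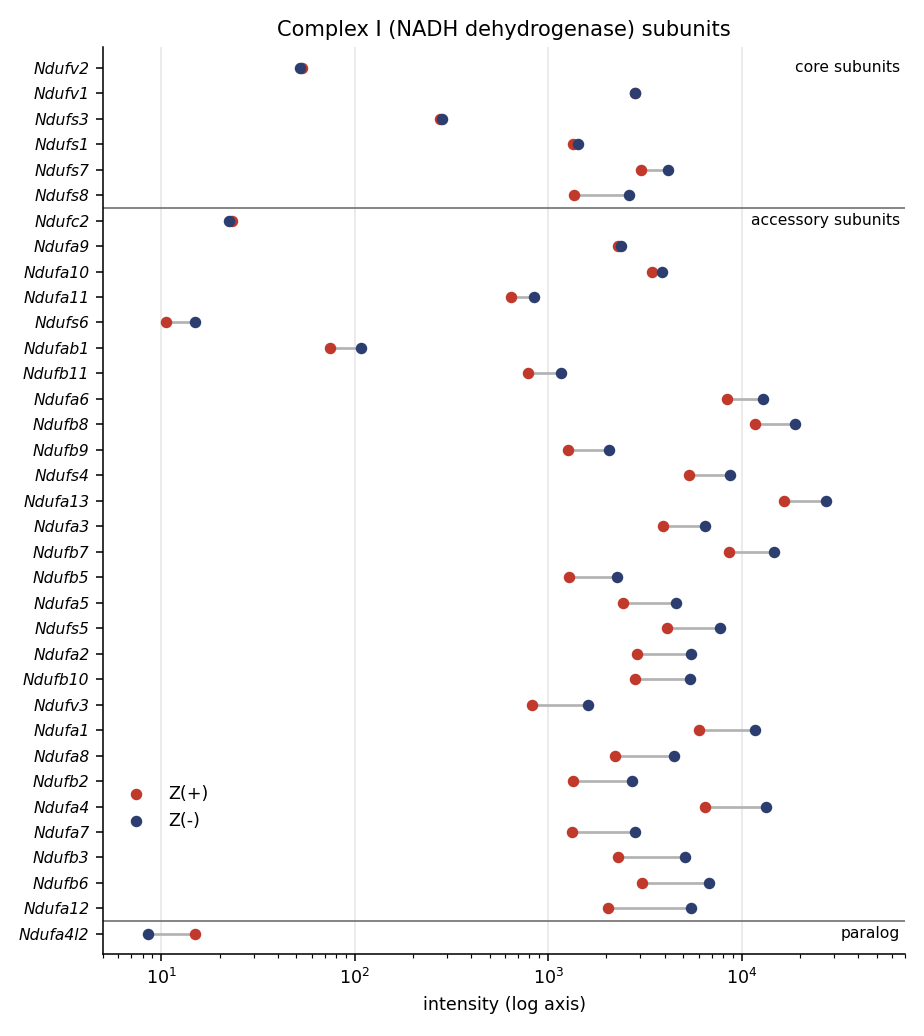
Intensity in Z(+) (red) and Z(-) (blue) on a log axis for each of 35 complex I genes, 1 sample per fraction, ordered within core and accessory subunits by the difference. The red point lies left of the blue one for 27 of 28 accessory subunits, while Ndufv1, Ndufs3 and Ndufs1 of the core have points that nearly coincide.

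Probes of 1 gene did not always give the same difference. Over 3 probes, Ndufv3, an accessory subunit of the NADH-oxidising arm, was lower in Z(+) by between -1.30 and -0.65 on the log2 scale, and over 2 probes Ndufs4, another one, by -0.74 and -0.65. The accessory subunit Ndufs5 had a single probe, at 4132 in Z(+) and 7768 in Z(-), while Ndufs6, at 10.5 in Z(+) and 15.0 in Z(-), and Ndufc2, at 23.1 in Z(+) and 22.5 in Z(-), were dim. Ndufa11, an accessory subunit of the membrane arm, was 0.18 higher from a dim probe and -0.97 from a bright one. The dim probe read 104 and 112 on the arrays of Z(+) and 94.1 and 96.0 on those of Z(-), against 3851 in Z(+) and 7542 in Z(-) for the bright one. Ndufa4l2, a paralog that hypoxia induces in other cells, was the subunit gene at least 1.5-fold higher, at 15.0 in Z(+) and 8.53 in Z(-). This was near the lower end of the scale, and its arrays in Z(-) read 5.94 and 11.1.

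Complex II, the succinate dehydrogenase of the citric acid cycle, is encoded by 4 nuclear genes, and its median log2 difference was -0.34. Sdha, the flavoprotein that oxidises succinate, had 3250 in Z(+) and 3160 in Z(-). Sdhb, the iron-sulfur subunit, had 6090 in Z(+) and 9485 in Z(-), 1.56-fold lower. The membrane anchors Sdhc, at 2371 in Z(+) and 2968 in Z(-), and Sdhd, at 5024 in Z(+) and 6435 in Z(-), were 1.25-fold and 1.28-fold lower. Its members thus lay between Sdha, near no difference, and Sdhb.

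Complex III was divided into 3 small subunits and 3 others, the Rieske protein, Uqcrc1 and Uqcrc2. Uqcrc1 and Uqcrc2 are core proteins by name and carry no cluster or heme. The small subunits were 1.79-fold to 3.16-fold lower in Z(+). Uqcr10 had the largest difference of all bright subunits, with 5034 in Z(+) and 15902 in Z(-). Uqcr11 had 1338 in Z(+) and 2419 in Z(-), and Uqcrq, which lies near a ubiquinone site, had 5422 in Z(+) and 9719 in Z(-). Among the others, the Rieske iron-sulfur protein Uqcrfs1 had 6587 in Z(+) and 8045 in Z(-), 1.22-fold lower. Uqcrc1, a core protein facing the matrix, had 1617 and 1748 on the arrays of Z(+) and 1851 and 1790 on those of Z(-). Its partner Uqcrc2 was the highest of the complex relative to Z(-), at 10026 in Z(+) and 8920 in Z(-), which is 1.12-fold higher. Cyc1, the heme-bearing cytochrome c1 of this complex, falls outside the symbols chosen and had 4308 in Z(+) and 5334 in Z(-).

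The nuclear subunits of complex IV surround a catalytic core encoded by mitochondrial DNA, and several exist as isoforms of single tissues. The median log2 difference was -0.49 over 16 genes, 11 of them lower in Z(+), 6 by at least 1.5-fold. The isoforms of most tissues were lower by modest sizes: Cox6b1, which joins the monomers, at 8046 in Z(+) and 13634 in Z(-) (1.69-fold), and Cox6a1 at 10344 in Z(+) and 16041 in Z(-) (1.55-fold). Cox4i1, the brightest gene of the complex in Z(-) apart from a probe of Cox7a2, had 18400 in Z(+) and 27103 in Z(-), 1.47-fold lower. Cox8a had 12360 in Z(+) and 17801 in Z(-), and Cox5a 20621 in Z(+) and 26006 in Z(-). Cox7a2 was lower at both of its probes, by -0.84 and -0.47. Cox7a2l, which encodes a factor that joins complexes III and IV, had 15627 in Z(+) and 16501 in Z(-) at its bright probe. Cox5b, dimmer at 158 and 188 on the arrays of Z(+) and 149 and 151 on those of Z(-), was the bright member with a higher value in Z(+).

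Among the isoforms of single tissues, 3 of 6 were lower in Z(+) by at least 2-fold, and all but Cox6b2 were dim. Cox6b2, the form of testis, was lower at both of its probes, with 184 and 200 on the arrays of Z(+) against 654 and 633 on those of Z(-) at the brighter one, and 131 and 150 against 390 and 350 at the other. Cox7a1, the form of heart and skeletal muscle, had 12.6 and 12.4 on the arrays of Z(+) and 50.5 and 52.5 on those of Z(-), 4.12-fold lower. Cox4i2, known from lung, had 21.3 and 21.7 in Z(+) and 64.4 and 58.6 in Z(-), 2.86-fold lower. The arrays of each of these probes did not overlap between the fractions. Of 31 subunit probes read on single arrays in both fractions, 20 did not overlap, 14 of them lower and 6 higher in Z(+). The share over all probes was not computed, so these counts do not set the subunits apart from other genes. With a pseudocount of 50, Cox7a1 had a log2 difference of -0.70 and Cox4i2 one of -0.64, so that neither passed 2-fold, while Cox6b2 still did at -1.33. Cox7b2, Cox8b and Cox8c, at 28.7 to 47.6 in Z(+) and 20.5 to 40.0 in Z(-), were within 1.5-fold. Brightness differs from probe to probe, so a low reading is no evidence that the transcript was missing. Cox7b and Cox6c, isoforms of most tissues, were dim too, at 38.5 in Z(+) and 52.5 in Z(-) for Cox7b and 96.7 in Z(+) and 91.6 in Z(-) for Cox6c. Between 20 and 100, 1 array of Z(+) read below the other by a median of 0.18 on the log2 scale.

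**Figure D4:**
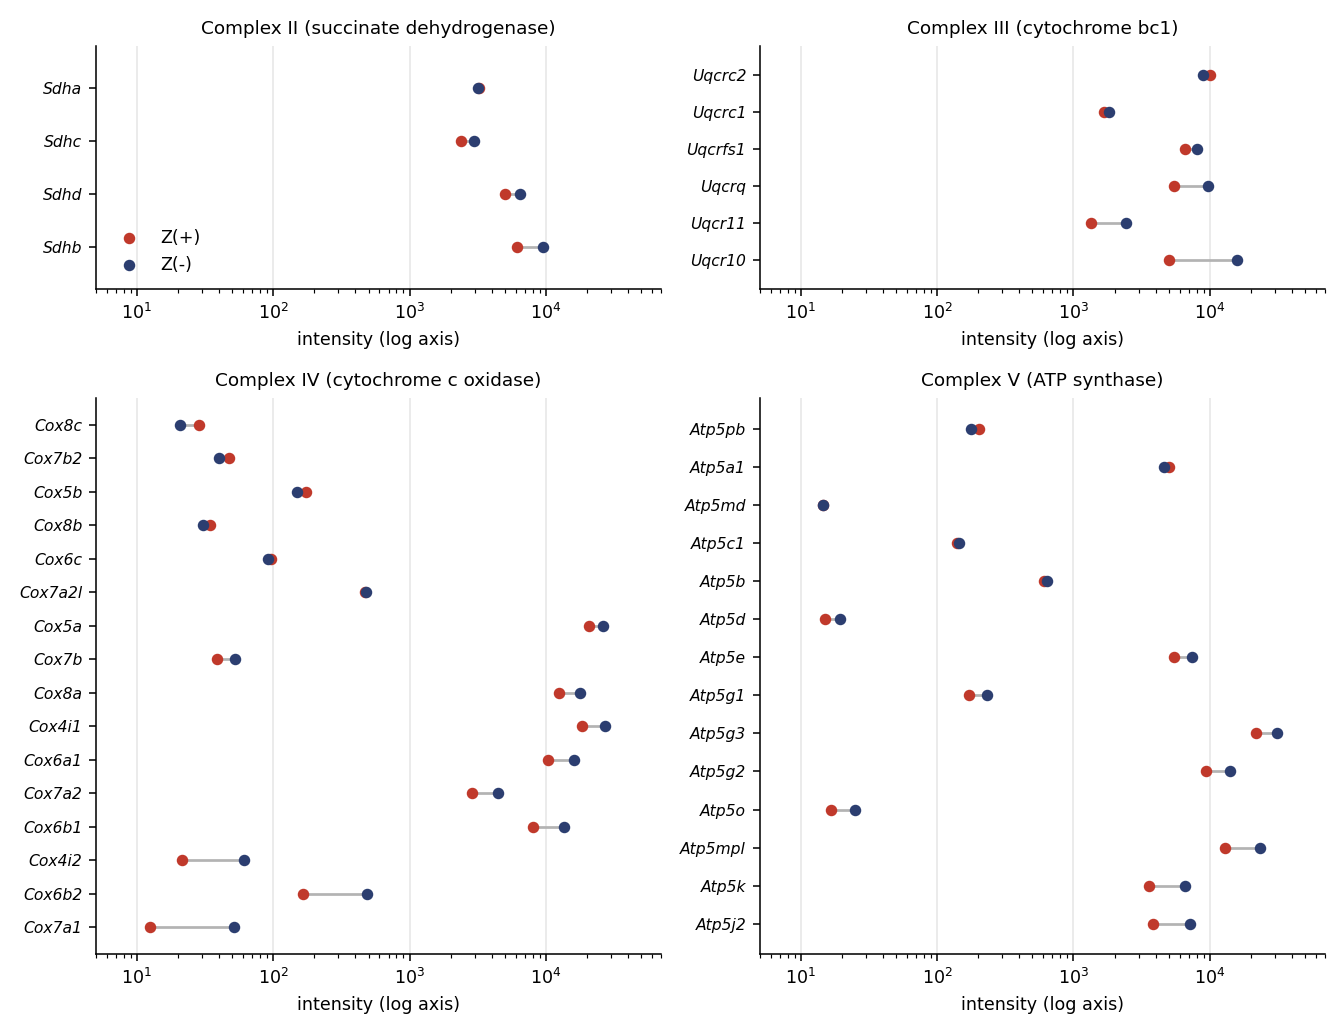
Intensity in Z(+) (red) and Z(-) (blue) on a log axis for the genes of complexes II (4 genes), III (6), IV (16) and V (14), 1 sample per fraction, ordered by the difference with the lowest at the bottom. Uqcr10 shows the widest gap among bright genes, 5034 in Z(+) against 15902 in Z(-), while Sdha, Uqcrc2 and Atp5a1 lie at or above their value in Z(-).

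ATP synthase has a catalytic head, F1, and a part in and along the membrane, Fo with the peripheral stalk. The median log2 difference of complex V was -0.44 over 14 genes, 11 of them lower in Z(+), 4 by at least 1.5-fold and 0 by 2-fold. The 5 genes of F1 had a median of -0.08 and the 9 of Fo and the stalk one of -0.58. Brightness was not matched between these classes, and the brightest genes of F1, Atp5e and Atp5a1, lay on either side of no difference. In F1, the alpha subunit Atp5a1 had 5012 in Z(+) and 4599 in Z(-), 1.09-fold higher, and the beta subunit Atp5b had 601 and 608 on the arrays of Z(+) and 644 and 636 on those of Z(-). The gamma subunit Atp5c1, at 135 and 147 on the arrays of Z(+) and 144 and 143 on those of Z(-), overlapped. Atp5e, the small epsilon subunit, was 1.34-fold lower at 5463 in Z(+) and 7338 in Z(-).

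Atp5j2, Atp5k and Atp5mpl, small membrane subunits of Fo, were the lowest of complex V. Atp5j2 had 3849 in Z(+) and 7151 in Z(-), Atp5k 3574 in Z(+) and 6610 in Z(-), and Atp5mpl 12950 in Z(+) and 23509 in Z(-), all between 1.86-fold and 1.82-fold lower. Atp5g1, Atp5g2 and Atp5g3 encode the same mature c subunit, whose ring turns with the proton flow. Atp5g3, the brightest gene of the complex, had 21707 in Z(+) and 31257 in Z(-), and Atp5g2 had 9320 in Z(+) and 13972 in Z(-), with log2 differences of -0.53 and -0.58. Atp5g1 had a bright probe at 1561 in Z(+) and 2864 in Z(-), and a dim one at 18.6 in Z(+) and 19.0 in Z(-). Atp5pb, the b subunit of the stalk, was 1.14-fold higher, with 192 and 212 on the arrays of Z(+) and 178 and 175 on those of Z(-). The remaining genes were dim: Atp5o, a stalk subunit, whose arrays overlapped at 11.6 and 21.7 in Z(+) and 14.9 and 35.4 in Z(-), Atp5d at 15.0 in Z(+) and 19.5 in Z(-), and Atp5md at 14.5 in both fractions. Cycs, cytochrome c itself, was dim and its arrays overlapped, at 30.0 and 50.7 in Z(+) and 42.6 and 27.3 in Z(-).

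Other genes of the pathway were described from 9 lists. Medians of assembly factors were lower in Z(+) for complexes I to IV and higher for complex V. The factors of complex IV had a median log2 difference of -0.30 over 18 genes, 6 at least 1.5-fold lower and 1 higher. Over the 13 of them at or above the median brightness it was -0.55. Coa6, which serves copper delivery, had 1573 in Z(+) and 3527 in Z(-), and the copper chaperone Cox17 2865 in Z(+) and 5720 in Z(-). Coa5 was the one higher, at 7800 in Z(+) and 4676 in Z(-). The 13 factors of complex I had a median of -0.14, which was -0.47 with the brightest probe of each gene and -0.48 over the 8 at or above the median brightness. Among them Ndufaf8 had 801 in Z(+) and 1663 in Z(-), Ndufaf2 had 770 in Z(+) and 1524 in Z(-), and Foxred1, an oxidoreductase, was 1.54-fold higher, with 538 in Z(+) and 350 in Z(-). Of 4 factors of complex II, Sdhaf4 had 830 in Z(+) and 1772 in Z(-), and Sdhaf3 130 in Z(+) and 241 in Z(-), with a median of -0.60 for the list. Uqcc3 of complex III had 334 in Z(+) and 653 in Z(-), in a list of 6 with a median of -0.41, or -0.26 with the pseudocount. The 3 factors of complex V had a median of 0.22. Of the electron transport genes outside the symbols chosen, 4 were measured, with a median of -0.38, and Atpif1, the inhibitor of ATP synthase, was the lowest at 3037 in Z(+) and 6723 in Z(-).

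As lists, genes that feed the chain or control it had medians near no difference. The citric acid cycle had a median of 0.06 over 12 genes, with 0 past 1.5-fold in either direction. Of these, 5 were lower, with Fh1, Suclg1 and Idh3g at -0.56 to -0.51, and 7 were higher, by up to 0.26. Carriers and pores of the mitochondrial membranes had a median of 0.11 over 8, where the germ cell ADP/ATP carrier Slc25a31 was lower at 74.6 in Z(+) and 113 in Z(-). The 13 regulators of mitochondrial biogenesis had a median of 0.07, with 3 at least 1.5-fold higher and 1 lower. The transcription factor Yy1 had 445 in Z(+) and 165 in Z(-), 2.70-fold higher, and Gabpa, an ETS factor, 1246 in Z(+) and 738 in Z(-), 1.69-fold higher. The coactivator gene Ppargc1a was 2.20-fold higher but dim, at 16.5 in Z(+) and 7.5 in Z(-), while Ppargc1b, at 387 and 369, and Nrf1, at 128 and 122, were nearly equal. Tfam, which packs mitochondrial DNA, had 78.6 in Z(+) and 57.5 in Z(-), and Tfb1m, a methyltransferase of mitochondrial ribosomal RNA, 71.6 in Z(+) and 124 in Z(-).

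Lists of other large complexes, added after these values were seen, were shifted the same way in part. Cytosolic ribosomal proteins had a median log2 difference of -0.40 over 39 genes, mitochondrial ribosomal proteins one of -0.36 over 71, and proteasome subunits one of -0.20 over 38. Over genes at or above the median brightness, where the subunits had -0.65, these medians were -0.60 over 25 cytosolic ribosomal proteins, -0.43 over 61 mitochondrial ones and -0.26 over 36 proteasome subunits. Cytosolic tRNA synthetases (-0.01 over 15), subunits of the V-type proton pump (0.06 over 21) and translation initiation factors (0.04 over 40) lay near no difference. The lower medians were thus not particular to oxidative phosphorylation.

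**Figure D5:**
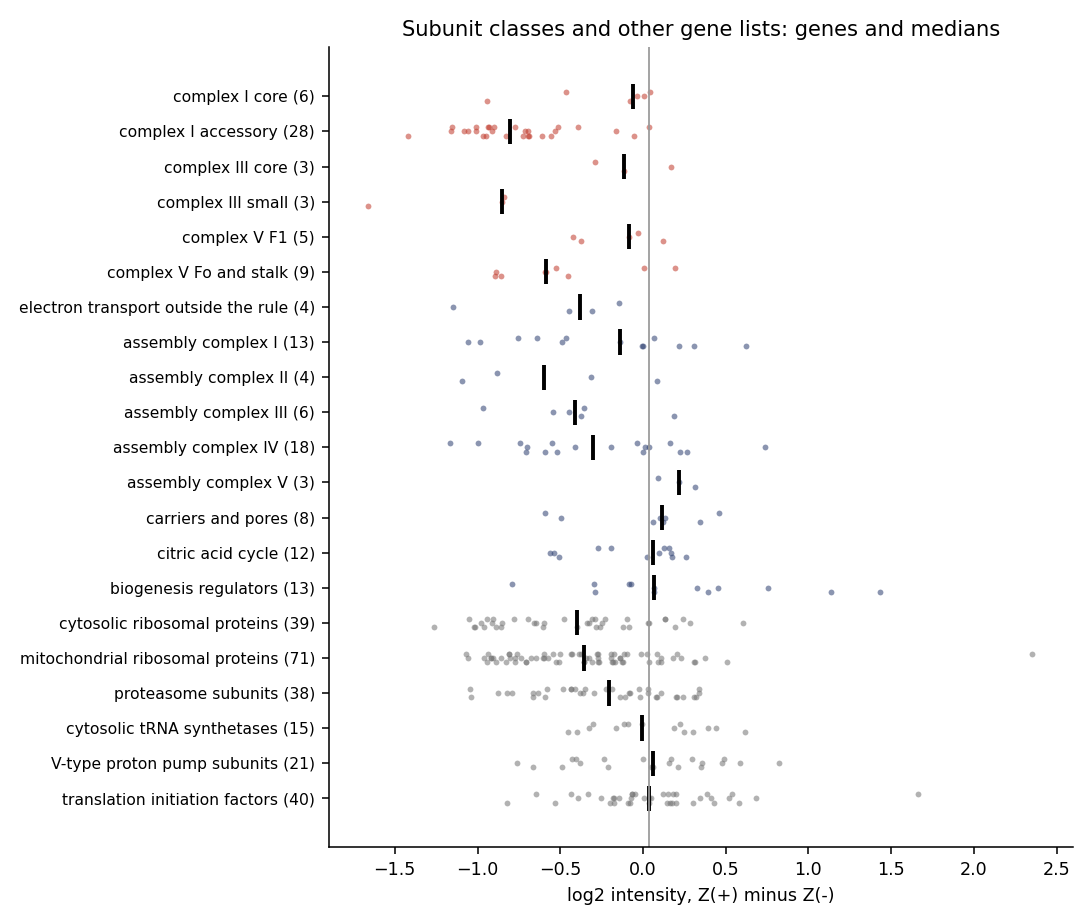
Log2 intensity of Z(+) minus Z(-) for single genes (points) and medians (black bars) of subunit classes (red), companion lists of the pathway (blue) and other complexes (grey), with the number of genes in parentheses and the median of all genes as a grey line. Accessory subunits of complex I lie at a median of -0.80, below the core at -0.06, and the citric acid cycle lies at 0.06. The class labelled complex III core holds Uqcrfs1, Uqcrc1 and Uqcrc2.

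The fractions also differed in markers of cell types. Of 10 macrophage markers, 10 had a higher intensity in Z(+), 7 by at least 2-fold, and their median difference was 1.68 on the log2 scale. Their summed intensity, 115242 in Z(+) and 74232 in Z(-), rests mostly on the bright Csf1r, Cd68 and C1qa. Of 9 NK cell markers, 7 were lower and the sums were 3734 in Z(+) and 50804 in Z(-), where Gzma alone had 25763. The other 2 were Eomes, higher at 898 in Z(+) and 661 in Z(-), and Ncr1, dim in both. All 5 markers of basophils and mast cells were lower, with sums of 1501 in Z(+) and 30575 in Z(-), as were all 4 of granulocyte precursors, with 5194 in Z(+) and 20955 in Z(-), and all 4 of T cells, with 1851 in Z(+) and 12220 in Z(-). The T cell sum in Z(-) is mostly Cd3d, at 9971. Whether T cells were present was not tested, and the study calls this strain deficient in them. Of 5 markers of dividing cells, 4 were lower, with sums of 1937 in Z(+) and 3917 in Z(-). Of 3 neutrophil markers 2 were lower, with sums of 46520 in Z(+) and 59902 in Z(-) that are nearly all S100a9, while Cxcr2 had 848 in Z(+) and 3599 in Z(-). Of 4 erythroid markers 2 were lower, with sums of 544 in Z(+) and 610 in Z(-), and of 4 B cell markers 2, with 1543 in Z(+) and 1444 in Z(-). No marker was at 0. Their part in the lower subunit transcripts was not tested, and the make-up of the cells and the fraction cannot be told apart in 1 sample each.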

How the data were processed

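Amplified RNA carrying Cy5 was read on 1-colour oligonucleotide arrays. For each of 26423 probes the authors deposited a linear intensity of each fraction. How the scans were background-corrected and normalized is not given in the sources used here. The platform's annotation gave 1 symbol for 21876 probes, and the subunits had 84 probes. Values under 1 were set to 1, log2 values of the probes of a gene were averaged (7 of 76 subunits had several), and Z(-) was subtracted from Z(+). Complexes and core or accessory classes follow the symbols and textbook knowledge. With 1 sample per group no test was run; lists are described by counts and medians beside those of all genes, with limits of 2-fold and 1.5-fold.

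Deposited values below 2000 were split into the whole-number readings of 2 technical arrays, each with its own factor (0.968 and 1.03 in Z(+), 0.990 and 1.01 in Z(-)), where 1 pair gave the value. Where several pairs gave it, the split was kept only if 1 of them lay within 1.5-fold or a few whole numbers apart. Between 400 and 2000, 97.4% of probes were split in Z(+) and 98.7% in Z(-), and the SD of a probe's log2 difference that the arrays leave was 0.06. The arrays differed by a median of 1.03-fold there in both, and between 20 and 100 by 1.16-fold in Z(+) and 1.06-fold in Z(-). They measure hybridization only. The split and the gene averages were tested on simulated data. The number of arrays limits the precision.

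The members, classes and lists were chosen with earlier results of these data known. Named were all members past 2-fold, up to 4 bright members per complex in each direction, the brightest of each complex, complex II, Cycs, isoform pairs, up to 2 companion genes per list in each direction past 1.5-fold and a few fixed regulators. Other members are given so that each one is accounted for, those with values having been chosen after their values were seen. Marker genes were used as lists only. Mitochondrially encoded subunits were not analysed here. Calculations ran in Python 3.11.15 with pandas 2.3.3 and numpy 2.4.6, loess (span 0.3) in statsmodels 0.14.6, and plots in matplotlib 3.10.9. Alternatives were other scalings, a pseudocount, the brightest probe and subsets of the members.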

Additional observations from a re-analysis of the deposited data

How the results depend on the processing

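The median log2 difference of all subunits was negative under each of the 10 alternatives of scaling, offset or membership, from -0.73 to -0.51, and so was that of each complex: -0.90 to -0.66 in complex I, -0.34 to -0.26 in complex II, -0.57 to -0.48 in complex III, -0.56 to -0.43 in complex IV and -0.72 to -0.30 in complex V. With a pseudocount of 50, complex IV had -0.43 and complex V -0.30, and 7 subunits were at least 2-fold lower, in place of 11, without Cox7a1, Cox4i2, Ndufa8 and Ndufb2. Quantile normalization gave -0.26 in complex II and -0.48 in complex III. Over members at or above the median brightness, the medians were -0.65 for all, -0.80 in complex I and -0.56 in complex IV. Over 53 members with at least 1000 in both samples from their brightest probe, an alternative chosen after seeing the data, they were -0.73 for all, -0.90 in complex I, -0.56 in complex IV and -0.72 in complex V. The count of subunits at least 1.5-fold higher was 0 instead of 1 in those settings and with the pseudocount. With all 76 members, between 33 and 38 were lower by at least 1.5-fold. It was 33 of the 60 members at or above the median brightness and 34 of those 53. This was not counted for the other subsets or with Ndufa4 counted in complex IV. Of 205 values of the subunits named by rule, under other scalings, the pseudocount or the brightest probe, 46 moved by more than the array SD of 0.06. Among these named subunits 1, Cox7a2l, changed sign, at -0.04 as deposited and 0.01 with each sample centred on its median. Subunits outside that rule changed sign too, as counts over all members show. The count of lower subunits, 61 of 76, was 58 with that centring, 59 with quantile normalization and 64 with loess. Of 45 medians of the companion lists under the same settings, 14 moved, and 0 changed sign. Over 31 probes split into arrays, mostly dim, the median was -0.04, and between -0.16 and 0.01 for single arrays, on either side of 0. No paired analysis was possible because each fraction has 1 sample.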
